A study of Homo sapiens with 2 samples.

Results

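Chromosome 22 carried 577 of the 20085 peaks in a list of sites where an antibody to PML-RARA left signal in NB4 cells. These are all rows of the list that name chromosome 22, on the genome build hg19. They were chosen by their place on this chromosome from peaks that the authors' peak caller had already selected on signal, so the signal that made them peaks is no result, and the comparison of their strength with other autosomes was picked with earlier results of the same data known. NB4 is a cell line from acute promyelocytic leukemia. The labels give no treatment, and 2 replicates formed the only group. The method was CUT&Tag, in which a transposase held by the antibody cuts adapters into nearby chromatin. The authors merged the replicates into 1 peak list. It gives no value per replicate, so neither a spread between replicates nor a test could be had, and peaks are not replicates of a condition. No control antibody was analysed here and the depth is unknown. An antibody raised against a fusion protein can also bind either normal partner, and no value here tells them apart.

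PML-RARA joins the nuclear body protein PML to the retinoic acid receptor alpha. The fusion binds DNA as oligomers, often with the partner RXR, at pairs of the hexamer that retinoic acid receptors read, and in promyelocytic cells many of its sites also carry the myeloid factor PU.1. It recruits co-repressors and is known for holding granulocyte maturation at the promyelocyte stage. Chromosome 22 is an acrocentric chromosome: its short arm consists of satellite repeats and ribosomal RNA gene arrays, and its long arm is rich in genes. The long arm holds BCR, the partner of ABL1 in the Philadelphia translocation, NF2, the tumor suppressor of schwannomas, and the immunoglobulin lambda locus.

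Start sites of named genes could be placed for 5 genes of the chromosome whose hg19 models were at hand, and 3 of them, NF2, RANGAP1 and MLC1, had a peak directly over a start site. For 4 of the 5, all but MLC1, the table of models names no build and was read as hg19. The RefSeq promoters of the 3 genes, from 250 bases before to 50 after the start on GRCh38.p14, are shown because the peaks lay on these genes' starts. Where RefSeq lists several promoters of a gene, those whose distance to the gene's far end matched an hg19 model within 100 bp were taken; of 2 such NF2 promoters, 80 and 3 bp off, the nearer was kept. MLC1 is shown with a promoter for each of its hg19 start sites, 74 and 54 bp off in that distance, since its peak spanned both. Capitals mark matches on either strand to the letters AGGTCA (hexamer of retinoic acid receptors), GAGGAA (PU.1 core), TGTGGT (RUNX core) and GGGCGG (GC box).
NF2, GRCh38 chr22:29603383-29603682, plus strand: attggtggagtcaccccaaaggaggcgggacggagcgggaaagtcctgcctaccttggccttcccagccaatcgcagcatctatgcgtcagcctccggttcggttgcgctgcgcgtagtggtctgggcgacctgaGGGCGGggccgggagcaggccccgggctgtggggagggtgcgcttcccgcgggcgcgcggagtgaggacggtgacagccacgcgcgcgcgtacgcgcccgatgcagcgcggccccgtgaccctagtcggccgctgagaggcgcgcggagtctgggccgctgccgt
RANGAP1, GRCh38 chr22:41286138-41286437, minus strand: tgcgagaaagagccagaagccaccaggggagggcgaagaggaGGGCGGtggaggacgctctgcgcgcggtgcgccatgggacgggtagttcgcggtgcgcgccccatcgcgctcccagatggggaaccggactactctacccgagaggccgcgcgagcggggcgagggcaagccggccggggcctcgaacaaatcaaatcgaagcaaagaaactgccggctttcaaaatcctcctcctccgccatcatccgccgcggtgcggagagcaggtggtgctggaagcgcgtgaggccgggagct
MLC1, GRCh38 chr22:50085377-50085676, minus strand: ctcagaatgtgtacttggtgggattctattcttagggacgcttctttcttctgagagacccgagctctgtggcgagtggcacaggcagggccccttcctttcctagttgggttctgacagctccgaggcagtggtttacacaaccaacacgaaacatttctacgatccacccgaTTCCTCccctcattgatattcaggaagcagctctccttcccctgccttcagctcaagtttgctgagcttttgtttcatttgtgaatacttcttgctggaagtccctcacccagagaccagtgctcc
MLC1, GRCh38 chr22:50085826-50086125, minus strand: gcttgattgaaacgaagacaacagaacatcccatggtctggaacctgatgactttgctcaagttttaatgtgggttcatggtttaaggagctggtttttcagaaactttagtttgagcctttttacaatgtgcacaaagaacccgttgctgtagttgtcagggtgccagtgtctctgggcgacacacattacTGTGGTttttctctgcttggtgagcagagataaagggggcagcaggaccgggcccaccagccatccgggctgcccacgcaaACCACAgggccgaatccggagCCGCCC

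The hexamer AGGTCA was in none of these 4 promoter windows, and 13.8% of all 35116 promoters in the RefSeq table hold it on either strand. GGGCGG was found at position 136 of the NF2 window and position 43 of the RANGAP1 window, counted from 1 at the 5′ end, and in reverse at position 295 of the upstream MLC1 window. This motif is in 44.95% of all promoters. The upstream MLC1 window also held TGTGGT at position 193 and its reverse ACCACA at position 274, a motif in 13.07% of all promoters. The downstream MLC1 window held TTCCTC, the reverse of GAGGAA, at position 175, as do 27.9% of promoters on either strand. The NF2 and RANGAP1 windows had 39 and 35 CpG dinucleotides, and the MLC1 windows 7 and 9, against a median of 14 over all promoters. A match of letters describes the sequence and is no evidence of binding.

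The 3 peaks over start sites were all above the upper quartile of total signal on the chromosome, 12012. NF2 encodes merlin, a cytoskeletal tumor suppressor, and its peak at chr22:29999126-30000102 covered the first exon of the models with a total signal of 20211, a maximum of 73 and a rank of 77 among the 577 peaks. Total signal is the authors' coverage summed over the bases of a peak, and maximum is the highest coverage in it. RANGAP1 encodes the GTPase-activating protein of RAN, a classic substrate of SUMO modification, and its first exon lay under chr22:41681439-41683021 (total 18885, maximum 55, rank 89). MLC1, a membrane protein of astrocytes and a glial marker here, had exons 1 and 2 under chr22:50522017-50524536 (total 20884, maximum 46, rank 73). SHISA8, a member of the Shisa family of transmembrane proteins, had a weak peak in its first intron at chr22:42308526-42309549, 1529 bp from its start (total 3583, maximum 8). ARHGAP8, a GTPase-activating protein, had no peak inside its models, and the nearest lay 67402 bp from its start. Thus 4 of 5 genes had a peak within 2 kb of a start, but 5 genes are too few for a share. In the RefSeq gene order MOV10L1 and then PANX2 follow MLC1, ZC3H7B follows RANGAP1 and CABP7 follows NF2, and whether such a neighbour shares a peak was not measured.

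Most peaks of chromosome 22 were short and modest, and a few were very strong. The median length, end minus start, was 882 bp (interquartile range 666 to 1267 bp), and the longest peak measured 9968 bp. Total signal had a median of 5498 (3560 to 12012) and ran to 253855 from a lowest value of 2578. The lowest total in the whole list was 2577, so the list has a floor that the weakest chromosome 22 peaks sat next to. The 10 strongest peaks held 19.3% of the chromosome's summed signal of 7004215, and the strongest 10% of its peaks held 46.9%. Longer peaks had more total signal across the 577 peaks (Spearman correlation 0.778), as is built into a sum over bases, and also somewhat more signal per base (Spearman correlation 0.291).

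The strongest site of the chromosome was chr22:38026808-38036776 in band 22q13.1, with a total of 253855, a maximum of 313 and a signal per base of 25.5. The peak chr22:37698556-37708257 of the same band came next (total 226173, maximum 260, signal per base 23.3), and chr22:37636810-37641715 followed at 4905 bp, with a total of 209462, a maximum of 301 and a signal per base of 42.7. These ranked 31, 42 and 53 among all peaks on chromosomes 1 to 22 and X. All 3 lay within 400 kb (399966 bp), a span singled out once the values were known, which held 33 peaks and 14.7% of the chromosome's signal. Band 22q13.1 also holds RAC2, a small GTPase of the phagocyte oxidase, CYTH4, an exchange factor for ARF GTPases, MAFF, a small MAF factor, and PDGFB, a growth factor. These genes share the band only, and no distance to them was measured.

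The strongest sites outside 22q13.1 were spread along the long arm. Near its tip, in 22q13.33, stood chr22:50624549-50631387 (total 127676, maximum 96) and chr22:50906581-50912067 (total 114550, maximum 165). In 22q11.21, chr22:20225028-20230408 reached 102530. The peak chr22:36800822-36802876 in 22q12.3 was 2054 bp long, with a total of 98810, a maximum of 198 and the highest signal per base of the chromosome at 48.1. Next in signal per base after the 37.6 Mb site came chr22:29562565-29564271 in 22q12.1 (41.7, total 71122, maximum 207) and chr22:43010109-43011961 in 22q13.2 (37.3, total 69012, maximum 130). The last of the 10 sites, chr22:38070591-38073674 in 22q13.1, ranked 8 and had a total of 81629. The 10 strongest sites ranged in length from 1706 to 9968 bp.

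Strong peaks were not always in company. The peak at chr22:33313338-33316943 in 22q12.3 had a total of 68832 and a maximum of 131, rank 11 on the chromosome. Its left neighbour ended 712088 bp away and its right neighbour began 962398 bp away. It was the only peak between 33 and 34 Mb.

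In bins of 1 Mb the peaks formed separate clusters along the long arm. The first 17 bins, the short arm and the region of the centromere, had none, and whether reads can be placed there was not measured. The first peak lay at chr22:17565466-17566664. From there on, 33 of 35 bins held peaks, with a median of 13, and the bins from 27 to 28 Mb and from 48 to 49 Mb were empty. The bin from 50 to 51 Mb, just inside the tip, had the most, with 53 peaks and 13.4% of the signal. It was followed by 37 to 38 Mb with 43 peaks (12.1% of the signal), 19 to 20 Mb with 37 (5.18%), 38 to 39 Mb with 34 (9.68%) and 24 to 25 Mb with 32 (5.01%). These 5 bins held 199 peaks, 34.5% of the count and 45.3% of the signal. The bin from 50 to 51 Mb also had 16 of the chromosome's 61 peaks longer than 2 kb. Bins with at least 20 peaks numbered 11 of 52 on chromosome 22 (21.2%), against 316 of 2845 on the other autosomes (11.1%), where 38 bins had 53 or more and the fullest had 115. Over the 35 bins from the first peak on, the share on chromosome 22 was 31.4%, with no such cut made on the other autosomes.

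Density differed widely between the cytogenetic bands of the long arm. Band 22q13.33 had 78 peaks, or 41.0 per Mb, ahead of 22q13.1 with 91 (26.8 per Mb), 22q12.2 with 63 (24.2), 22q11.23 with 49 (20.4) and 22q13.2 with 63 (19.7). Intermediate were 22q11.21 with 69 (16.05), 22q13.31 with 66 (15.7) and 22q12.3 with 57 (10.6). Few peaks lay in 22q12.1 (22 peaks, 5.95 per Mb), 22q11.22 (6 peaks, 4.62 per Mb), 22q13.32 (4 peaks, 4.0 per Mb) and the centromeric 22q11.1 (9 peaks, 2.81 per Mb). On how much of 22q11.1 reads can be placed was not measured, so its place in this order is not settled. Giemsa-negative bands had 22.1 peaks per Mb and the darkest class on this chromosome 11.0. Between these classes the median signal per base ran the other way, at 6.70 and 7.88. The palest positive class, with only 6 peaks, was below them in both, at 4.62 per Mb and 4.58. The highest medians of signal per base by band were 8.32 in 22q13.2 and 7.69 in 22q12.3, and the lowest was 4.58 in 22q11.22, from 6 peaks.

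**Figure D1:**
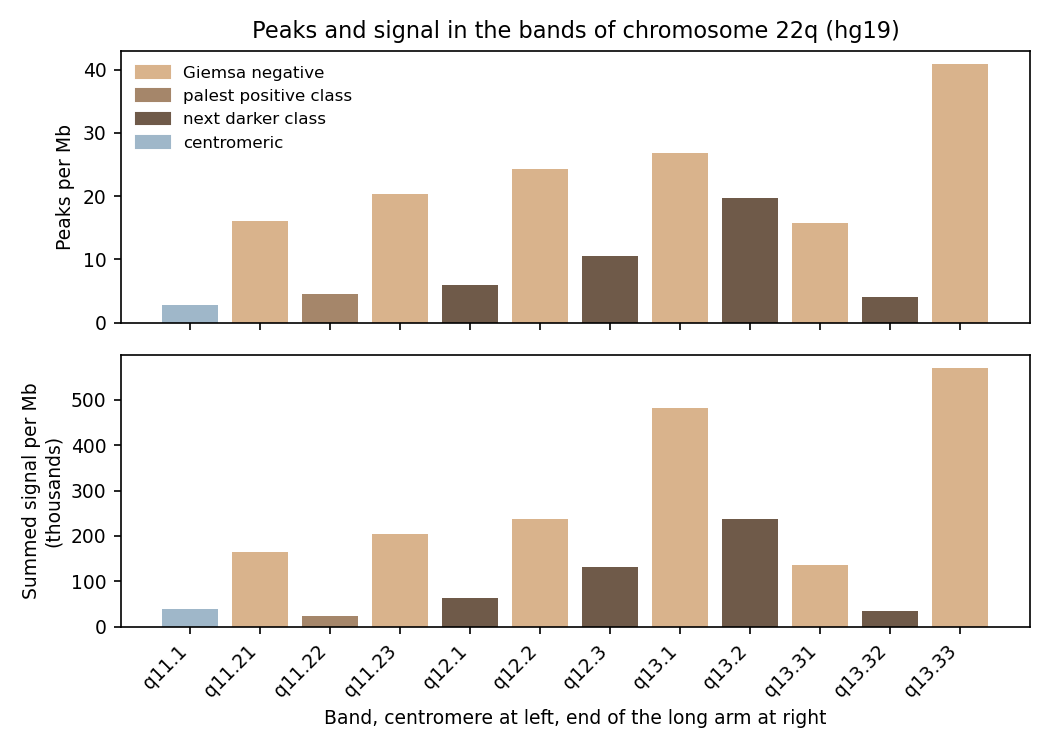
Peaks per Mb (top) and the authors' summed signal per Mb (bottom, 1 unit of the axis being 1000 of signal) for each hg19 band of the long arm, from the centromere to the tip, coloured by Giemsa stain class. Band q13.33 is highest in both, with 41.0 peaks per Mb, and q13.1 has 26.8 peaks per Mb.

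The genes of the lists used here lay in dense and sparse bands alike. The 13 phagocyte and myeloid genes had a median band density of 24.2 peaks per Mb, against 19.7 for all 439 protein-coding genes of 22q. RAC2, CYTH4, the galectin genes LGALS1 and LGALS2, the cytidine deaminase gene APOBEC3A and the adaptor gene GRAP2 lay in 22q13.1, and the cytokine genes OSM and LIF with PIK3IP1 in 22q12.2. NCF4, an oxidase subunit, CSF2RB, the shared beta chain of myeloid cytokine receptors, MYH9, a nonmuscle myosin, and the heme oxygenase gene HMOX1 lay in 22q12.3 at 10.6 per Mb. The 10 genes of signalling and cell growth had a median of 25.5. Those named here were MAPK11, MAPK12 and PIM3, all kinase genes, in 22q13.33, NF2 in 22q12.2, CSNK1E and TAB1 in 22q13.1, BCR in 22q11.23, CRKL in 22q11.21 and CHEK2 in 22q12.1. The 11 genes listed under transcription and chromatin had a median of 19.7, counting ZNRF3, which encodes a ubiquitin ligase instead. EP300, a histone acetyltransferase, SREBF2, TCF20 and TEF lay in 22q13.2. ATF4, MAFF and MRTFA lay in 22q13.1, PPARA, a nuclear receptor that pairs with RXR, in 22q13.31, SMARCB1 in 22q11.23, and XBP1 and ZNRF3 in 22q12.1.

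The remaining lists gave medians on both sides of that of all genes. The 6 housekeeping genes, among them RPL3 and ADSL, had a median of 23.6 peaks per Mb and the 4 genes of SUMO and ubiquitin (RANGAP1, RBX1, UBE2L3, UFD1) 17.9. Among markers of other cell types, the 4 B lymphocyte genes had 12.2. VPREB1 and IGLL5, at the immunoglobulin lambda locus, lay in 22q11.22 at 4.62 per Mb, IGLL1 in 22q11.23 and TNFRSF13C in 22q13.2. IL2RB, the T and NK lymphocyte marker, lay in 22q12.3 at 10.6. The 3 platelet genes had 16.05, the 3 liver genes and the 5 neuronal genes 19.7 each, and the 2 glial genes SOX10 and MLC1 33.9. A band spans up to 5.4 Mb and many genes share it, so these values place no peak at a gene, and nothing was tested.

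Runs of peaks join neighbours that lie at most 10 kb apart. Runs of at least 3 took in 233 of the 577 peaks, or 40.4%. The share was 44.3% on the other autosomes and 52.7% on chromosomes 16, 17, 19 and 20. Those are the autosomes with more peaks per Mb than chromosome 22. Denser peaks lie closer together, so a higher share in runs there is partly built in. The share of chromosome 22 ranked 14 of 22 autosomes from the top. A neighbour within 10 kb was present for 353 peaks (61.2%), against 61.6% on the other autosomes. Chromosome 22 had 48 runs of at least 3 peaks, with 50.9% of its signal, and 224 peaks that stood alone. Peaks in these runs were longer than single peaks (median 999 against 799.5 bp) and had more total signal (6210 against 5003.5) but less signal per base (6.66 against 7.29). The other autosomes had the same order in total signal (6970 against 6197) and in signal per base (7.06 against 7.98).

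The longest run of the chromosome lay in 22q13.1 at chr22:37662772-37713686. It joined 16 peaks over 50914 bp, of which 59.7% were inside peaks, and its summed signal of 438764 was 6.26% of that of the chromosome. The strength within it was uneven: 2 peaks, with totals of 226173 and 58956, held most of its signal, and the 5 weakest had totals from 2851 to 4521. The strongest peak sat near the right end of the run, with a peak of total 34888 at 164 bp to its left. The other autosomes had 33 runs of 16 or more peaks, the longest with 39.

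**Figure D2:**
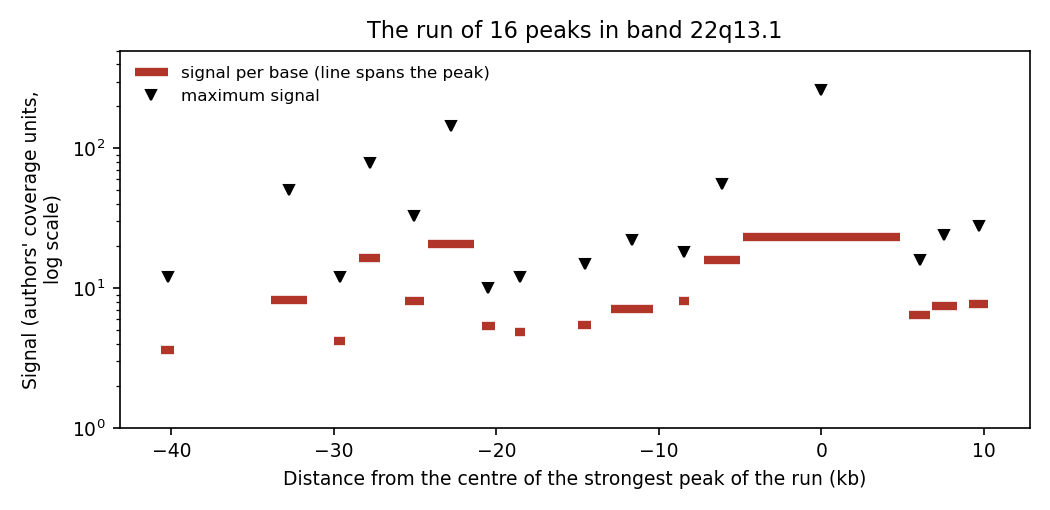
Signal per base (red lines, each spanning its peak) and maximum signal (triangles) of the 16 peaks of the longest run, against distance in kb from the centre of its strongest peak, on a log axis. The strongest peak reaches a maximum of 260 and a second one, left of it, 145.

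The next runs differed in strength more than in number of peaks. The run at chr22:29591436-29622404, across the border of 22q12.1 and 22q12.2, had 10 peaks and a summed signal of 78856, led by a peak of total 33377. The run at chr22:30648382-30687386 in 22q12.2 had 9 peaks and 161432, with its strongest peaks at 56395, 37109 and 22144. The run at chr22:19929577-19974441 in 22q11.21 also had 9 peaks but only 64044, of which a single peak gave 25535. Among the 3 runs of 8 peaks, chr22:50960880-50987916 in 22q13.33 summed to 239739 and was 74.9% covered by peaks, chr22:36843612-36866679 in 22q12.3 summed to 124699, and chr22:51038164-51066994, the last before the end of the arm, summed to 34466 with no maximum above 23.

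Peaks of chromosome 22 had the lowest medians of total signal, maximum and signal per base among the 22 autosomes. Their median total was 5498, against 6506 in the 19116 peaks of the other autosomes, a ratio of 0.845. The next lowest were chromosomes 8 (5901), 18 (6046.5) and 13 (6096), and the highest was chromosome 21 (7184). The median maximum was 19 against 22 on the other autosomes. Median signal per base was 6.99 (interquartile range 4.99 to 10.4) against 7.54 (5.46 to 11.4), a ratio of 0.928, next to chromosomes 16 (7.05) and 4 (7.12). The interquartile ranges overlap widely, and chromosome 22 differs from its neighbours in that order by far less than the spread among its own peaks. That spread is among single peaks and does not measure how precisely a median is placed. No test was made of these differences, since the peaks share the same pair of libraries.

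**Figure D3:**
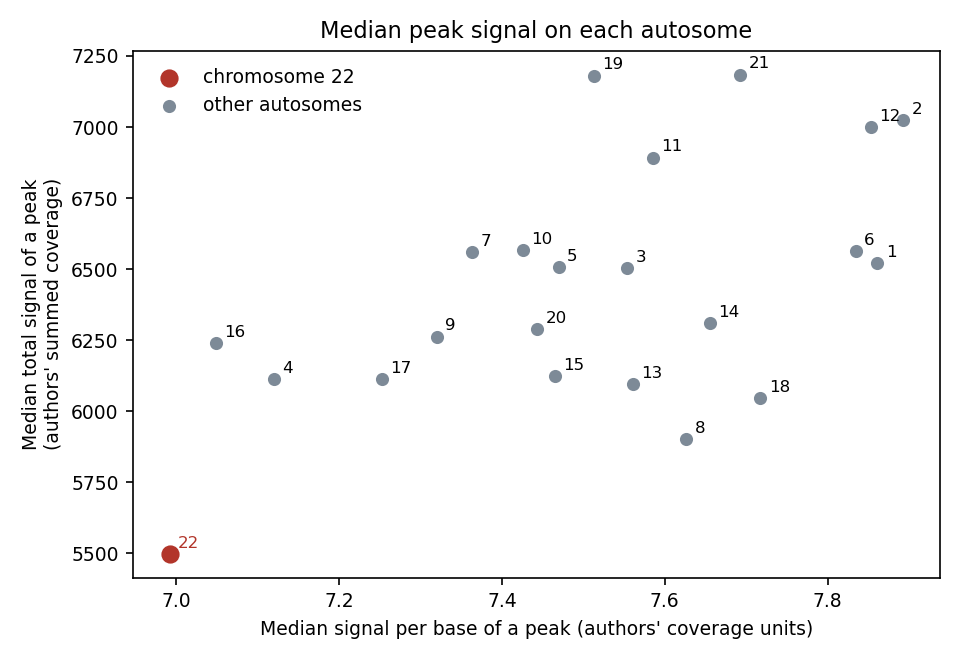
Median signal per base (horizontal) and median total signal (vertical) of the peaks of each autosome, in the authors' coverage units, with chromosome numbers beside the points; the axes do not start at 0. Chromosome 22 is lowest on both, at 6.99 and 5498, and chromosome 16 is next in signal per base at 7.05.

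Length did not set chromosome 22 apart. Its median of 882 bp was 0.985 times the 895 bp of the other autosomes and ranked 7 of 22 from the lowest. Peaks longer than 2 kb were 61 of 577, or 10.6% (95% Wilson interval 8.32 to 13.3%, counting error only), against 11.0% elsewhere, and those longer than 4 kb 13, or 2.25%, against 2.12%. Within classes of length, the median signal per base was lower on chromosome 22 in all 5 classes, though by almost nothing in the shortest. It had a median of 5.27 against 6.02 at 661 to 895 bp (158 and 4786 peaks), 7.16 against 7.84 at 896 to 1343 bp, and 8.71 against 10.2 at 1344 to 2000 bp (61 and 2668 peaks). Over 2000 bp it had 12.2 against 12.9, and in the shortest class, up to 660 bp, 6.86 against 6.87. The interquartile ranges overlapped in every class.

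**Figure D4:**
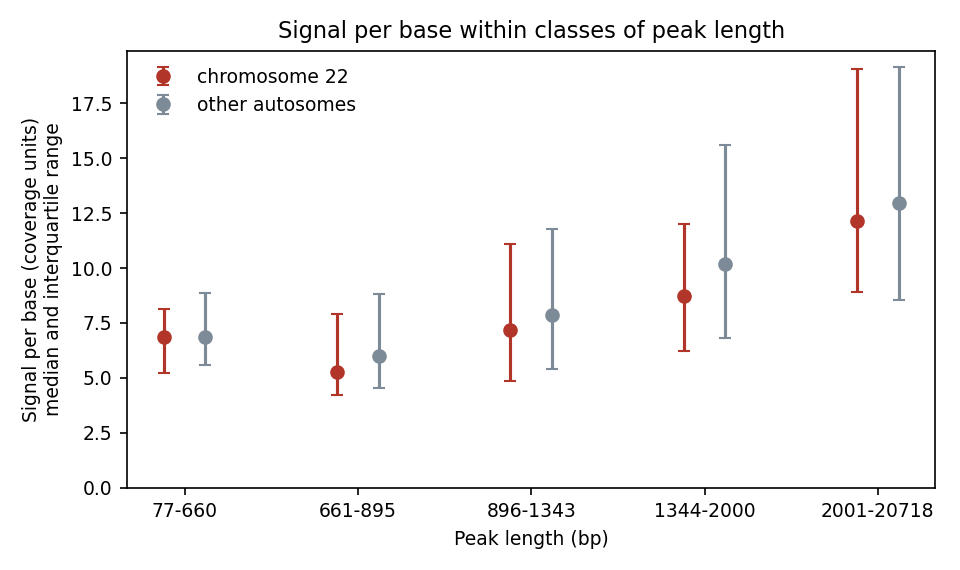
Median signal per base with its interquartile range (bars) in 5 classes of peak length, for chromosome 22 (red, left) and the other autosomes (grey, right). Chromosome 22 is lower in every class, by the least up to 660 bp (6.86 against 6.87) and by the most at 1344 to 2000 bp (8.71 against 10.2), and the ranges overlap throughout.

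The lower medians came with more weak peaks and fewer tall ones. Peaks in the lowest 25% of autosomal total signal made up 169 of the 577, or 29.3% (Wilson interval 25.7 to 33.1%), the highest share of any autosome, against 24.9% on the others. Those in the top 10% were 45, or 7.80% (5.88 to 10.3%), against 10.1%. That share ranked 3 of 22 from the lowest, after chromosomes 18 (4.46%) and 14 (6.80%). Peaks with a maximum of at least 100 were 19, or 3.29%, against 5.24%, and the 90th percentile of signal per base was 15.6 against 17.5. In the top 1% of total signal, chromosome 22 had 5 peaks, or 0.867% of its own, against 1.00%. When only peaks with a total at or above the list's median were kept, 253 on chromosome 22, their median total was 13577 against 13936 (ratio 0.974) and ranked 11 of 22 from the lowest.

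Peak number set against the length of the chromosome was high. Chromosome 22 had 11.2 peaks per Mb of hg19 length, rank 5 of 22 from the top, and peaks covered 1.30% of it. All its peaks over the length outside centromeric, variable and stalk bands gave 17.3 per Mb. On that measure it stood below chromosome 19 (34.2) and beside chromosome 17 (17.2). The measure counts the 9 peaks of centromeric 22q11.1 although the length of that band is left out, so the order against chromosome 17 is not settled. Chromosome 22 had 2.93% of autosomal peaks and 2.57% of autosomal peak signal on 1.78% of the autosomal length. Neither copy number of the chromosome in NB4 nor how well reads map to it was measured here.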

How the data were processed

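CUT&Tag libraries from 2 NB4 replicates with a PML-RARA antibody were sequenced in pairs on a MiSeq, per the labels' protocols; nothing says whether they came from separate cultures. Trimmomatic, Bowtie2, SAMtools, bedtools and SEACR with build hg19 are named in the submitters' processing notes. For versions, threshold, control and scaling nothing is stated (not given in the sources used here). Both deposited signal columns were read as SEACR's total signal and maximum: in all 20085 rows the column headed width is above the peak's length, and in 0 rows is it above length times maximum. Starts are printed as listed and may count from 0.

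Length, signal per base, bins (by midpoint), runs and medians were computed with Python 3.11.15 and pandas 2.3.3. Runs, merging, the total over bins and a constant signal per base were checked on simulated peaks, and medians were not. Bands and lengths came from circlize 0.4.16, hg19 gene models from GenomicFeatures 1.54.1 (MLC1) and pyranges 0.1.4 (4 genes, build not named in that table), and symbols, bands of genes and promoters from RefSeq GRCh38.p14. Gene bands were matched to hg19 bands by name; no coordinates were converted. All 62 listed genes, in 11 lists, were matched; 1 of them, counted in its list's median, is not reported here. Members, lists, comparisons and the named sites (the 10 strongest peaks, and the bins and runs with the most peaks) were chosen with earlier results of these data known; NF2, RANGAP1, MLC1, SHISA8 and ARHGAP8 are all genes of the chromosome with an hg19 model at hand. No test was run. Wilson intervals cover counting error only. Alternatives were another threshold, merging, other gaps, bins and windows, and other sets of chromosomes.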

Additional observations from a re-analysis of the deposited data

How the results depend on the processing

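Of the alternatives tried, 53 values stayed close in size to those reported and 22 moved, and none had a test. The tally is no measure of how stable the results are. Keeping only stronger peaks must lower counts and densities. The bins of 500 kb and 2 Mb counted as close in size, although the fullest bin changed place. The 53 also include the values with each of 12 bands left out in turn. Keeping only peaks with total signal at or above the list's median left 253 peaks, 31 in the fullest bin (still 50 to 51 Mb), 32.0% in runs of at least 3, 47.0% with a neighbour, 18.4 per Mb in the densest band, 24.1% longer than 2 kb (21.9% on the other autosomes) and a ratio of median total signal of 0.974. Keeping only those with maximum at or above the list's median left 266, 24, 18.8%, 38.3%, 15.2 per Mb, 21.8% (19.4%) and 0.956, in the same order. Merging peaks within 1 kb gave 27.7% in runs, 50.2% with a neighbour and 17.6% longer than 2 kb (17.9%). The share in runs was 28.9% with gaps of at most 5 kb and 57.2% with 20 kb; the share with a neighbour was 49.05% within 5 kb and 90.5% within 50 kb. Density over the length outside centromeric, variable and stalk bands was 17.3 per Mb for the same 577 peaks.

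The ratio of median signal per base lay between 0.915 and 0.969 under the settings of threshold, merging, length class and chromosomes compared, apart from 0.864 with the maximum in its place. Its rank from the lowest was 5 and 4 of 22 under the thresholds on total and maximum. With each of 12 bands left out in turn, chosen after seeing the data, the ratio was 0.917 to 0.9496 and chromosome 22 stayed lowest in 9 cases; it ranked 3 without 22q13.33. Median total signal stayed lowest in all 12, but ranked 2 of 22 from the lowest with peaks within 1 kb merged, 11 with the threshold on total and 9 with that on maximum. The place of the fullest bin moved with bin size: with bins of 500 kb it began at 37.5 Mb (38 peaks) and with 2 Mb at 36 Mb (69 peaks), in place of 50 Mb. The cause of these changes was not tested. No paired analysis was possible because both replicates were merged before deposit and no replicate could be left out.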

Other observations

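Large stretches of 22q had no listed peak. The widest gap, 1492008 bp, ran from 47547691 to 49039699, across the border of 22q13.31 and 22q13.32, and ended less than 2 Mb before the densest bin of the chromosome. The next lay in 22q12.3 from 34293704 to 35695345 (1401641 bp) and in 22q12.1 from 26879951 to 28007618 (1127667 bp). A gap of 579392 bp, from 22647451 to 23226843, fell in 22q11.22. VPREB1 and IGLL5 share this band, but whether either gene lies in the gap was not measured. Gaps between neighbours had a median of 15216.5 bp on chromosome 22 and 14571 bp on the other autosomes, while their upper quartile was 49307 bp against 64014 bp. No explanation was tested.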
